A study of Mus musculus with 8 samples.

Results

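The genes described are 7 components of the STING pathway and of DNA sensing, chosen by name: the sensors Zbp1 and Ifi204, the adaptor Tmem173 (also called Sting1), the kinases Tbk1 and Ikbke, the nuclease Trex1, and Samhd1, which destroys deoxynucleotides. They are 7 of the 51912 gene identifiers in the count files, and 6 of the 7 could be tested. RNA sequencing of epidermal sheets peeled from ear skin gave 8 libraries, each of 1 mouse. The 4 mice labelled A20KIKO were A20F/F Krt5-CreERT2+ and the 4 labelled A20WT were A20F/F Krt5-CreERT2-, so all carried the conditional allele of Tnfaip3, the gene of the ubiquitin-editing enzyme A20. The Krt5 promoter drives the tamoxifen-inducible Cre in basal keratinocytes. All mice were 8 weeks old, received 2 injections of 1 mg tamoxifen on consecutive days and were killed 7 days after the first. A deletion of A20 and the presence of the Cre cannot be told apart in this design.

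In this pathway, DNA that reaches the cytosol is bound by sensor proteins, and the adaptor encoded by Tmem173, which sits in the endoplasmic reticulum, then recruits the kinase Tbk1. Tbk1 and the related kinase Ikbke phosphorylate transcription factors that switch on interferon genes. Other enzymes keep the pathway quiet by removing stray DNA or its building blocks. Several genes of the pathway are themselves induced by interferon. In skin, keratinocytes and resident immune cells can both use it.

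Summed counts per library lay between 40451075 and 89624373, above the average number of reads per sample that the labels state, for a cause that was not tested. Libraries labelled A20KIKO mouse 1 and mouse 4 were the deepest of that label (86290868 and 89106039 counts), and mouse 2 and mouse 3 had 58156350 and 40451075. The 12 keratinocyte markers together held 49411 to 73783 CPM (counts scaled by library total and a TMM factor) in every library, and all 12 were tested. Of these, 2 fell, the basal keratin Krt5 and the cornified-layer gene Flg2, and 0 rose, where 3.49% of all tested genes changed in either direction. Tnfaip3 itself was at 74.0 ± 17.3 CPM under the label A20KIKO and at 16.5 ± 2.65 CPM under A20WT (SD over 4 mice), the reverse of what the label names. A whole-gene count includes exons outside a deleted part, so it does not check the deletion.

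In the A20KIKO libraries 4 of the 6 tested members rose, 0 fell and 2 did not pass (edgeR quasi-likelihood, Benjamini-Hochberg adjusted p under 0.05 over all genes). Across all 16512 tested genes, 3.49% changed and 2.43% rose. The median log2 change (A20KIKO minus A20WT) was 1.45 over the 6 tested members and -0.01 over all tested genes. The sensors Zbp1 and Ifi204 had log2 changes of 5.73 and 4.57, Tmem173 one of 1.58, and Ikbke a narrow one of 0.87. Samhd1 and Tbk1 did not pass. The groups did not overlap in 5 of the 6 tested members, against 5.78% of all genes with every A20KIKO library higher. The filter on low counts was met by Zbp1 and Ifi204 in 4 of 4 A20KIKO but only 3 of 4 A20WT libraries, so their place among the tested genes depended on the A20KIKO libraries and these shares describe the tested members alone. These are bulk measurements, in which more cells that express a gene and more RNA per cell cannot be told apart.

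**Figure D1:**
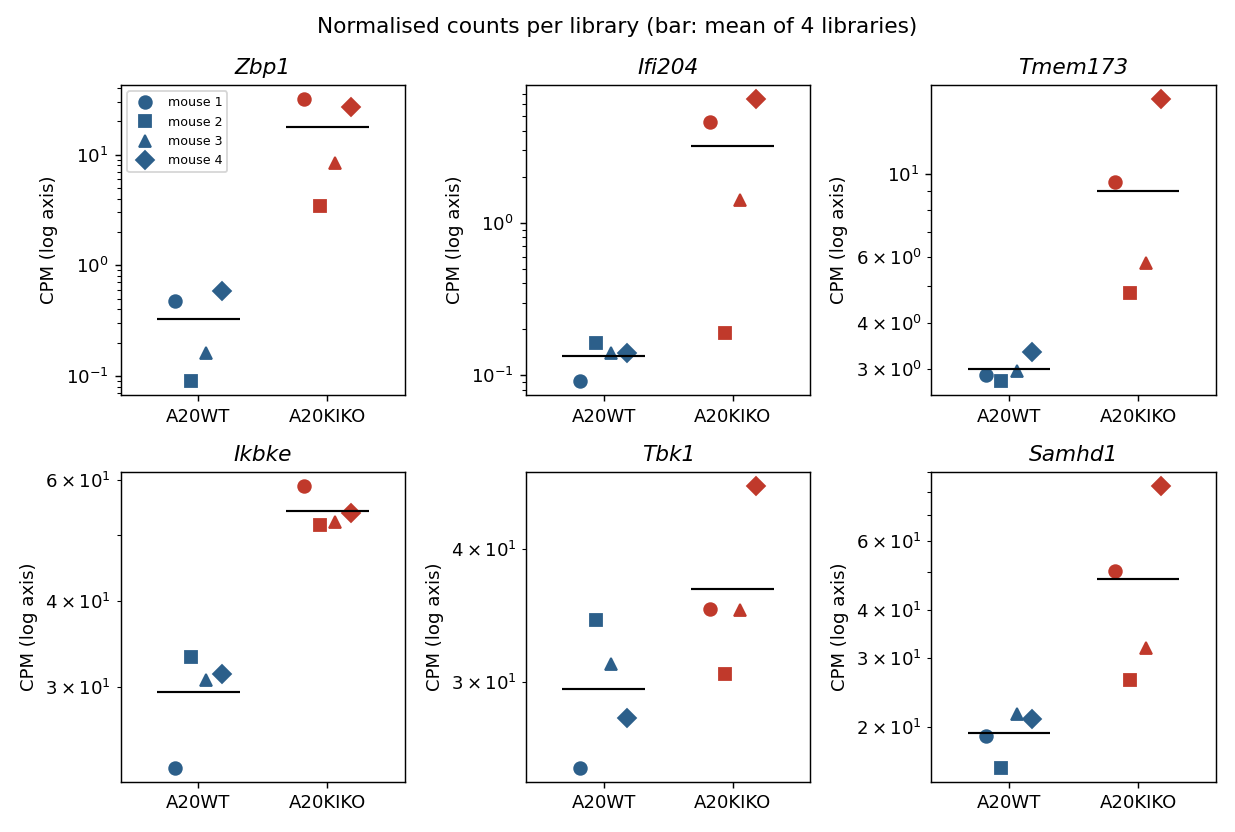
Normalised counts of the 6 tested members in each library (vertical log axes in CPM, red A20KIKO, blue A20WT, symbols mark the mouse, bars the mean of 4). The groups lie apart in every panel except Tbk1, and A20KIKO mouse 1 and mouse 4 are the highest red symbols in each panel, with mouse 3 level with mouse 1 for Tbk1.

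Promoter sequence was compared for the members that the RefSeq table covers on GRCm38.p6. Each window runs from 250 bases before to 50 bases after a transcript start, in the direction of the gene, and 5 windows of 4 members were found (Zbp1, Ifi204 and Tmem173 were not compared). The windows of Ikbke, which rose, and of its relative Tbk1, which did not pass, are shown to set the kinases side by side, and that of Samhd1 because it holds the motif match. They lie at chr1:131279514-131279813, chr10:121586745-121587044 and chr2:157135047-157135346, all on the minus strand, and capitals mark a match to 1 of the 3 motifs searched.
Ikbke: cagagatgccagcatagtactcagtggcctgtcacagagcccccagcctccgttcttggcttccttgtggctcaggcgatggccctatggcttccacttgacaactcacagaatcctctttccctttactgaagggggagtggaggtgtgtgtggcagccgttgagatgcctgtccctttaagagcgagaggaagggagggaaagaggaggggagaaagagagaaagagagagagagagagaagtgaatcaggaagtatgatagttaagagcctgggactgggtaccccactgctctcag
Tbk1: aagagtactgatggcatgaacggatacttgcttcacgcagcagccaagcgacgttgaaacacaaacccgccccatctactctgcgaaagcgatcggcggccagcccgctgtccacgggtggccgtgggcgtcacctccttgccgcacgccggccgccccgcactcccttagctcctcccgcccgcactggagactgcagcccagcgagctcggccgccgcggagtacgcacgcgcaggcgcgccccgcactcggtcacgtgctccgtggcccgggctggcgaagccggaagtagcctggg
Samhd1: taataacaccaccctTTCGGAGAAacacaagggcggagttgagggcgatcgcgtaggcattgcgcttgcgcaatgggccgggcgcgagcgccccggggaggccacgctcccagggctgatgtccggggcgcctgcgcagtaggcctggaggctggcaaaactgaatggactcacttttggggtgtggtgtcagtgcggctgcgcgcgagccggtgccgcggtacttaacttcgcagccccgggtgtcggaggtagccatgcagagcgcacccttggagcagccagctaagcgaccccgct

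The searched motifs were the interferon-stimulated response element core GAAANNGAAA, a strict NF-kB site GGGANTTTCC and the STAT site TTCNNNGAA, each on either strand. Of 32851 promoter windows outside chromosome 18, 3.44% held the first, 0.411% the second and 8.30% the third. None of the 5 windows of the members, the 2 of Trex1 included, held the first or the second. The Samhd1 window held 1 match to the STAT site, at position -235 from the start. The windows differed in base composition: Tbk1 had 37 CpG dinucleotides and 69.0% G or C, Samhd1 29 and 65.7%, and Ikbke 4 and 54.0%. A missing match says only that these letters are not in these windows.

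Zbp1, the sensor of left-handed nucleic acids that can engage the necroptosis kinase Ripk3, rose most of the members. It had 31.8, 3.46, 8.46 and 27.0 CPM in A20KIKO mice 1 to 4. In A20WT mice 1 to 4 it had 0.472, 0.0901, 0.162 and 0.590 CPM. Each library labelled A20KIKO was higher than each labelled A20WT, and the lowest, mouse 2, was still several times above the highest A20WT library. The A20WT mean was 0.329 ± 0.241 CPM and the A20KIKO mean 17.7 ± 13.8 CPM (SD of 4 mice). The log2 change was 5.73 (SE 0.96, 95% interval 3.46 to 8.00, edgeR adjusted p = 0.0227). It ranked 21 from the highest of 16512 log2 changes. The fold starts from few reads, since all 4 A20WT libraries summed to 98 counts of Zbp1, with 5 in mouse 2 and 41 in mouse 1. The adjusted p was 0.0547 to 0.0923 when any A20WT library was left out, and 0.00354 to 0.0412 when any A20KIKO library was. DESeq2 gave 2.73e-09, limma-voom 0.0502 and the fit without a count filter 0.0516.

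Ifi204, a mouse DNA-binding protein of the interferon-inducible HIN-200 family, rose from a still lower level. It had 4.58, 0.190, 1.40 and 6.44 CPM in A20KIKO mice 1 to 4, and 0.0922, 0.162, 0.139 and 0.140 CPM in A20WT mice 1 to 4. Mice 1 and 4 were highest, while A20KIKO mouse 2 was barely above the highest A20WT library. That mouse held 11 counts of Ifi204, and the A20WT libraries 8 to 12 each. The log2 change was 4.57 (SE 0.95, 95% interval 2.42 to 6.73, edgeR adjusted p = 0.0348). Leaving out A20KIKO mouse 2 gave 0.000307, and the call was lost without A20KIKO mouse 1 (0.0638) or mouse 3 (0.0518) or any A20WT library (0.107 to 0.147). It was also lost in limma-voom (adjusted p = 0.207), without a count filter (0.137), against a 1.5-fold change (0.0784), with lane L002 alone (0.107) and with the replicate block (0.0677), and DESeq2 gave 4.57e-05. Relatives of this gene lie close together and share sequence, so counts can be split between them.

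Of the 27 genes of the list of other DNA sensors, 23 were tested and 0 were called by edgeR, with 8 at an unadjusted p under 0.05 (7 of them higher), 7 called by DESeq2 and 0 by limma-voom. Over all genes tested, 15.4% had an unadjusted p under 0.05, DESeq2 called 6.21% and limma-voom 3.34%. Without A20KIKO mouse 2, edgeR called 6 of the list and 3.62% of all genes. The list's median log2 change was 0.09. Its most abundant members were Hmgb1, a chromatin protein, at 530 ± 52.3 and 578 ± 105 CPM (adjusted p = 0.762), and Hnrnpa2b1, an RNA-binding protein, at 472 ± 54.6 and 489 ± 31.9 CPM (adjusted p = 0.906), each A20KIKO then A20WT. Cgas, the enzyme that makes the cyclic dinucleotide bound by the Tmem173 product, was named after its values were seen. Its level was 11.9 ± 1.82 CPM with the label A20KIKO and 9.84 ± 1.199 CPM with A20WT (log2 change 0.28, adjusted p = 0.442). The relatives of Ifi204, grouped after their values were seen, were 12 genes with 8 tested, and their log2 changes ran from -0.39 (Ifi202b) to 3.16 (Ifi205), 7 of the 8 above 0. None of these 8 was called by edgeR, and their lowest adjusted p was 0.0509, for Mndal. The median log2 change over all tested genes was -0.01. Ifi205 and Ifi206 had at most 0.216 and 0.279 CPM in the A20WT libraries. Their place among the tested genes depended on the A20KIKO libraries, so the range and the 7 of 8 describe the tested relatives alone.

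Tmem173, the adaptor on which cytosolic DNA signals converge, was 3.00-fold higher under the label A20KIKO. It had 9.51, 4.81, 5.76 and 15.8 CPM in A20KIKO mice 1 to 4. In A20WT mice 1 to 4 it had 2.90, 2.79, 2.97 and 3.34 CPM. The A20WT libraries lay close together, the A20KIKO libraries were spread 3.29-fold from lowest to highest, and the groups did not overlap. The log2 change was 1.58 (SE 0.32, 95% interval 0.89 to 2.28, edgeR adjusted p = 0.0167). The call was lost without A20KIKO mouse 1 (0.0516) or without A20WT mouse 1, 2 or 3 (0.0889, 0.0718 and 0.0685), and it was kept without A20KIKO mouse 4 (0.0241), the highest library. Against a 1.5-fold change the adjusted p was 0.0919. Of 34 genes of STING trafficking and regulation, 33 were tested, 1 rose and 0 fell, with a median log2 change of -0.02. Over all tested genes 2.43% rose, so 1 riser is close to that share. The riser was Trim30a, a tripartite-motif protein that restrains this adaptor in the mouse. It went from 0.347 ± 0.159 to 5.61 ± 4.30 CPM (log2 change 4.02, adjusted p = 0.0137), and it did not pass without A20WT mouse 1 or mouse 2, where the adjusted p reached 0.0895. Trim30a also missed the threshold in limma-voom (adjusted p = 0.0515), without a count filter (0.0748) and with lane L001 alone (0.0508).

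Ikbke, the inducible kinase of the pair, had 58.9, 51.7, 52.2 and 53.8 CPM in A20KIKO mice 1 to 4. In A20WT mice 1 to 4 it had 22.9, 33.2, 30.8 and 31.4 CPM. The A20KIKO libraries were nearly level with each other and all above the A20WT libraries. Ikbke rose 1.83-fold (log2 change 0.87, SE 0.13, 95% interval 0.59 to 1.16, edgeR adjusted p = 0.00292). Its call held when any 1 of the 8 libraries was left out (0.00259 to 0.0148), and it was lost against a 1.5-fold change (0.244). Antisense genes Gm28914 and Gm28913 share 1.76% and 0.721% of its exon bases and held 0 to 6 counts per library.

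Tbk1, the constitutive kinase that phosphorylates the Tmem173 product and Irf3, had 35.1, 30.5, 35.1 and 45.8 CPM in A20KIKO mice 1 to 4. It had 24.9, 34.3, 31.2 and 27.7 CPM in A20WT mice 1 to 4. The groups overlapped, with A20KIKO mouse 2 below A20WT mice 2 and 3. The log2 change of 0.31 (SE 0.15, 95% interval -0.01 to 0.64) did not pass (edgeR adjusted p = 0.353). The interval allows a rise of up to 1.56-fold.

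The ratio of Ikbke to Tbk1 within a library does not depend on library size. Its log2 value was 0.75, 0.76, 0.57 and 0.23 in A20KIKO mice 1 to 4. In A20WT mice 1 to 4 it was -0.12, -0.05, -0.02 and 0.18. The ratio was higher in all 4 A20KIKO libraries, and mouse 4, where Tbk1 was highest, came closest to the A20WT libraries. The group means, 0.58 ± 0.25 and 0.00 ± 0.13 (SD, n = 4 each), differed by 0.58 (two-sided exact permutation p = 0.0286, the smallest that 4 against 4 allows, and 0.0571 adjusted over the 2 ratios computed). For the sensors, the log2 ratio of Zbp1 to Ifi204 was 2.89 ± 0.88 and 0.93 ± 1.47 (exact permutation p = 0.0571, and 0.0571 adjusted). In the A20WT libraries that ratio rests on 5 to 41 counts of Zbp1 and 8 to 12 of Ifi204.

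Of 19 adaptors of these kinases and interferon regulatory factors, 16 were tested, 1 rose and 0 fell, with a median log2 change of -0.01. Of all tested genes 2.43% rose. The riser was Irf7, an interferon-induced transcription factor that the kinases activate. It had 188, 64.6, 85.6 and 153 CPM in A20KIKO mice 1 to 4 whereas the A20WT libraries ranged from 8.70 to 13.5 CPM. Its log2 change was 3.48 (SE 0.35, edgeR adjusted p = 0.00126), and it passed with any library left out. Irf3, another target of Tbk1, had 53.7 ± 2.12 and 59.5 ± 5.43 CPM, A20KIKO first (edgeR adjusted p = 0.581). Tank, a scaffold of both kinases, had 34.0 ± 3.19 and 31.1 ± 4.62 CPM in the same order (edgeR adjusted p = 0.722). Irf3 and Tank were named after their values were seen. Ifnb1, which encodes interferon beta and was named after its values were seen, was too low to test. Its counts were 1, 2, 0 and 26 in A20KIKO mice 1 to 4 and 0 in each A20WT library.

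**Figure D2:**
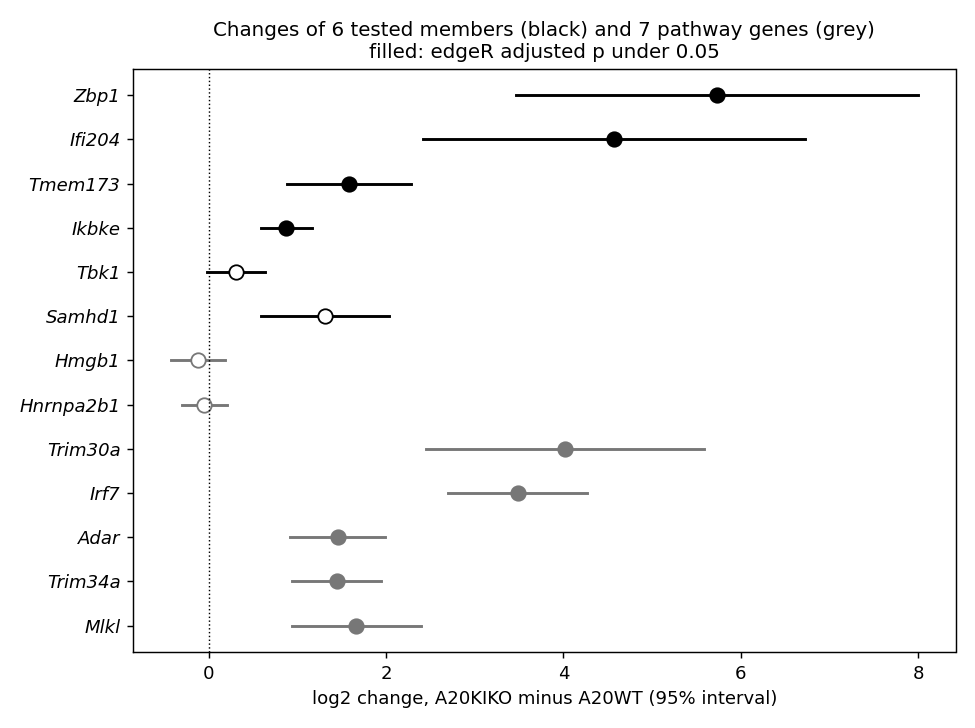
Log2 change (A20KIKO minus A20WT) with its 95% interval for the 6 tested members (black) and 7 genes of the pathway lists (grey), where filled circles passed edgeR's test. Zbp1 and Ifi204 lie farthest right with wide intervals, Ikbke has the narrowest of the called members, and the interval of Tbk1 crosses 0.

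Samhd1, which destroys the deoxynucleotides needed for DNA synthesis and is a cause of interferon-driven disease in humans when lost, did not pass. It had 50.2, 26.3, 31.9 and 82.9 CPM in A20KIKO mice 1 to 4. In A20WT mice 1 to 4 it had 19.0, 15.8, 21.6 and 21.0 CPM. Every A20KIKO library was above every A20WT library, with mouse 4 highest and mouse 2 closest to the A20WT group. The log2 change was 1.31 (SE 0.32, 95% interval 0.58 to 2.03, edgeR adjusted p = 0.0633). It passed without A20KIKO mouse 2 (0.00873), mouse 3 (0.0451) or mouse 4 (0.0402), in DESeq2 (0.000195), with non-robust dispersions (0.0420), with the stricter filter (0.0461), with lane L001 alone (0.0352) and with the replicate block (0.0201). Samhd1 did not pass without A20KIKO mouse 1 (0.155) or without any single A20WT library (0.130 to 0.214). It also missed in limma-voom (0.0658), without a count filter (0.205), against a 1.5-fold change (0.334) and with lane L002 alone (0.0986). The other size factors gave 0.0508 and 0.0609.

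Trex1, the exonuclease that degrades DNA in the cytosol, had 0 counts in all 8 libraries and gives no level here. In GENCODE M21 it lies on chromosome 9 (109057933 to 109059734 in GRCm38, minus strand), and all 1147 of its exon bases are also exon bases of Atrip, a gene of the DNA damage checkpoint on the same strand. Of 142 protein-coding genes in the files whose every exon base is shared with another gene, 136 (95.8%) had 0 counts in all libraries. Of 15408 protein-coding genes with no shared exon base, 3762 (24.4%) did. Atrip had 3 to 24 counts per library and was not tested. How reads shared by overlapping genes were counted is not given in the sources used here, and no absence of Trex1 RNA is read from its 0 counts.

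Of 22 other genes of nucleic acid clearance, all 22 were tested, 1 rose and 0 fell, with a median log2 change of -0.03. Among all tested genes 2.43% rose. The riser was Adar, which edits double-stranded RNA and limits its sensing. It had 57.4, 32.03, 46.1 and 50.2 CPM in A20KIKO mice 1 to 4 and 9.67, 22.5, 16.5 and 19.2 CPM in A20WT mice 1 to 4. The groups did not overlap, and the log2 change of 1.45 (SE 0.25, edgeR adjusted p = 0.00652) passed with any library left out. Of 8 partners of Zbp1 in necroptosis, 2 rose (2.43% of all tested genes did) and 0 fell, with a median log2 change of 0.29. Mlkl, the pore-forming executioner of necroptosis, rose from 4.06 ± 0.128 to 12.9 ± 6.53 CPM (log2 change 1.67, adjusted p = 0.0176), and its adjusted p was over 0.05 without any single A20WT library (up to 0.104), in limma-voom (0.0536) and against a 1.5-fold change (0.0913). Trim34a, a tripartite-motif protein, rose from 5.90 ± 1.13 to 16.0 ± 5.20 CPM (log2 change 1.44, adjusted p = 0.00405) and passed with any library left out. Ripk3, named after its values were seen, had 19.6 ± 4.27 and 13.3 ± 2.69 CPM, A20KIKO first (adjusted p = 0.139).

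Scaled to exon length, Tbk1 had the highest mean level of the members under both labels, 7.55 ± 1.04 CPM per kilobase in the A20WT and 9.37 ± 1.66 in the A20KIKO libraries (SD, n = 4 each). In the A20WT libraries Ikbke followed at 3.28 ± 0.504, Samhd1 at 2.11 ± 0.287 and Tmem173 at 1.09 ± 0.0862 CPM per kilobase, and the libraries of neighbours in this order did not overlap. Zbp1 and Ifi204 came last at 0.0932 ± 0.0682 and 0.0374 ± 0.00827 CPM per kilobase, and these 2 overlapped. In the A20KIKO libraries Ikbke, Samhd1 and Zbp1 came to 6.01 ± 0.365, 5.23 ± 2.79 and 5.01 ± 3.92 CPM per kilobase and did not differ beyond their spread. Single libraries of Zbp1 (9.01 in mouse 1) and Samhd1 (9.06 in mouse 4) reached into the range of Tbk1, 7.81 to 11.7 CPM per kilobase, while those of Ikbke did not. Tmem173 was next at 3.28 ± 1.82 and Ifi204 last at 0.886 ± 0.806 CPM per kilobase. Exon length is the union over all annotated transcripts, which understates the level of genes with long rare exons. It was 9018 bases for Ikbke and 3910 for Tbk1. Unscaled, Ikbke and Tbk1 had 29.6 and 29.5 CPM in the A20WT libraries, and 54.2 and 36.6 CPM in the A20KIKO libraries. The place of Tbk1 above Ikbke therefore depends on the lengths used.

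**Figure D3:**
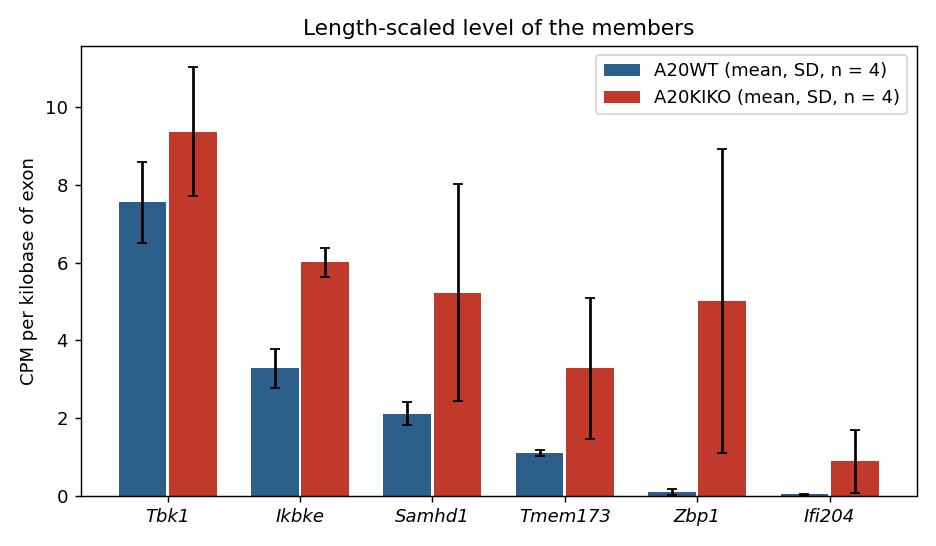
Level of the 6 tested members per kilobase of exon (bars are the mean and lines the SD of 4 libraries, blue A20WT, red A20KIKO). The mean of Tbk1 is highest under both labels, and the bar of Zbp1 goes from near 0 to the level of Samhd1.

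The A20KIKO mice kept nearly the same order in each member. Mice 1 and 4 were the highest of the 4 in all 6 tested members, followed by mouse 3 and then mouse 2 in each. Mice 1 and 4 were the highest in 22.4% of all tested genes and in 58.4% of the 401 genes called higher. The SD of log2 CPM among the A20KIKO libraries was 0.09 for Ikbke, 0.24 for Tbk1, 0.74 for Samhd1, 0.77 for Tmem173, 1.501 for Zbp1 and 2.21 for Ifi204. These mice also had the deepest libraries of their label, and the part of depth was not tested. Markers of other cells moved in part with the same mice. Of 17 monocyte and macrophage markers, 12 were tested, 4 rose (2.43% of all tested genes did) and 0 fell. None of the 17 was at 0 counts in all libraries. Their summed level was 138 to 233 CPM in the A20KIKO and 86.3 to 126 CPM in the A20WT libraries, highest in A20KIKO mice 4 and 1. C1qb, a complement subunit made by macrophages, was 1 of the 4 that rose and was named after its values were seen. Its levels were 13.3, 2.25, 6.59 and 8.32 CPM for A20KIKO mice 1 to 4. The A20WT libraries ranged from 0.392 to 0.776 CPM. For C1qb mice 1 and 4 were thus again highest and mouse 2 lowest. Mice 1 and 4 were the highest in each of the 12 tested markers except Csf1r and Adgre1. Csf1r peaked in mouse 3 (88.4 CPM) and was lowest in mouse 4 (72.8 CPM). Mouse 2 was also not the lowest for Cd14, Itgam and Fcgr3. Cd14 supplied 52.4 CPM of the sum of A20KIKO mouse 4. Its level was 4.09, 3.24 and 2.70 CPM for mice 1 to 3. Of 10 shared leukocyte markers 0 were called by edgeR, with 4 at an unadjusted p under 0.05 (15.4% of all tested genes were), and their sum was 250 to 403 and 182 to 274 CPM. The 15 neutrophil markers summed to 3030 CPM in A20KIKO mouse 4, while the other 3 ranged from 51.9 to 91.8 CPM. Of these 15, 4 were tested and 0 called by edgeR, with 1 at an unadjusted p under 0.05 (15.4% of all tested genes were). Elane was at 0 in every library. The sum of the 15 was 39.2 to 68.5 CPM in the A20WT libraries. Of 9 fibroblast markers, 8 were tested, 1 fell (Col6a1) and 0 rose, where 3.49% of all tested genes changed in either direction. The sum of the 9 was 22.0 to 49.3 CPM in the A20KIKO and 51.0 to 66.5 CPM in the A20WT libraries. Of 7 melanocyte markers, all 7 were tested and 0 were called by edgeR, with 4 at an unadjusted p under 0.05 (15.4% of all tested genes were). Their sum was highest in A20KIKO mouse 2 (226 CPM) and lowest of that label in mouse 4 (48.0 CPM), and it was 43.7 to 59.1 CPM in the A20WT libraries. All 8 Langerhans cell and all 12 T cell markers were tested, and edgeR called 0 of either list. Their median log2 changes were 0.17 and 0.03. The Langerhans cell markers summed to 2237 to 2516 CPM in the A20KIKO and 1889 to 2459 CPM in the A20WT libraries. For the T cell markers the sums were 163 to 171 and 152 to 185 CPM. The part of all these cells in the members' changes was not tested.

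**Figure D4:**
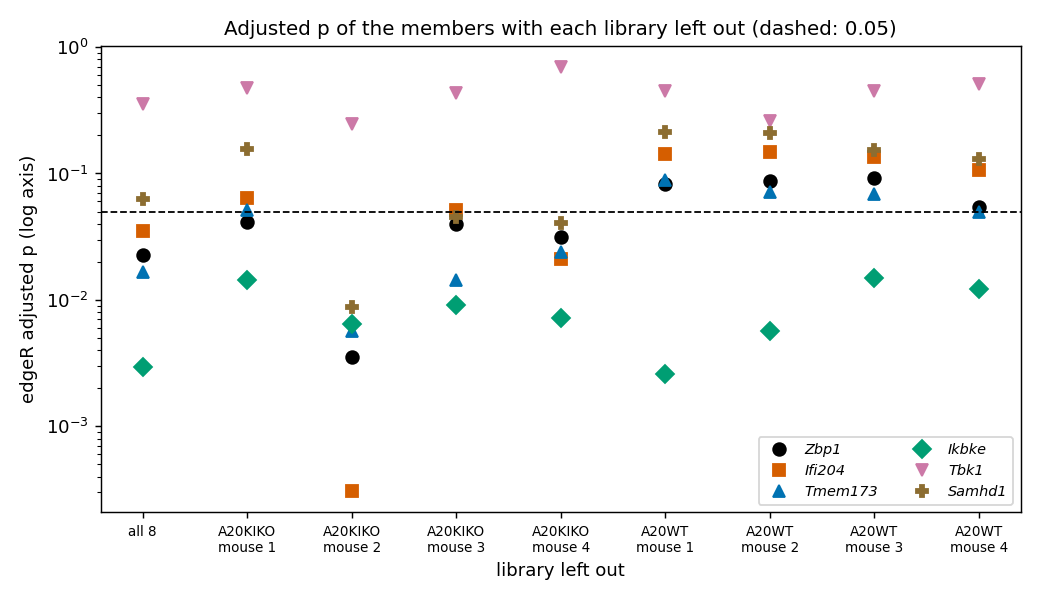
Adjusted p (edgeR, log axis) of each tested member with all 8 libraries and with each library left out (the dashed line is 0.05). Ikbke stays below the line throughout and Tbk1 above it, and Zbp1 and Ifi204 are above it whenever an A20WT library is left out.

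For each tested member the closest profiles were sought among 10337 genes whose mean reached 5 CPM, by the root mean square difference of log2 CPM, minus its A20WT mean, over the 8 libraries. Nfkb2 and Ces2f were closest to Ikbke (0.12 and 0.12 log2 units), and Garem1 and Rinl to Tbk1 (0.07 and 0.07). Plscr1 and Samhd1 were closest to Tmem173 (0.18 and 0.20), and Stx11 and Tmem173 to Samhd1 (0.20 and 0.20). These 2 members were thus each other's second neighbour. The nearest profiles of the sensors were farther: Oas1a and Ifit3 were nearest to Zbp1 (0.79 and 0.81), and Ifi47 and Slfn2 to Ifi204 (0.75 and 0.78). This distance is not scaled to a gene's spread, which was largest for the sensors (SD of log2 CPM 1.501 and 2.21 among the A20KIKO libraries). It therefore does not show that their profiles are more distinct.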

How the data were processed

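The deposited files hold the authors' raw counts for each Ensembl identifier of the mouse, with each of 2 sequencing lanes in its own column. Per the submitters' processing notes, the tools were HTSeq 0.6.1p1, STAR 2.4.2a and Picard 1.139, and GRCh38 is named beside GRCm38.p5, with roles, annotation and counting options not given in the sources used here. Per the labels' protocols, libraries were SMART-Seq v4 and Nextera, which keep no strand and no molecular identifiers. Lanes were summed. Of 51912 identifiers, 51633 matched a symbol, and positions come from GENCODE M21.

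Genes passing filterByExpr (minimum count 10) were fitted in edgeR 4.0.16 (R 4.3.3) with TMM factors, robust quasi-likelihood dispersions and the group as the only term, and called at an adjusted p under 0.05. The SE is the absolute log2 change over the square root of F. The fit was tested on simulated counts. limma 3.58.1, DESeq2 1.42.0, other size factors, filters, lanes, the replicate block and each library left out were alternatives. Within-library ratios (0.5 added to each count) used exact permutation tests in SciPy 1.17.1.

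The members and lists were chosen with earlier results of these data known. Named were the members, Tnfaip3, up to 6 called genes per pathway list (or the 2 most abundant where none was called) and the 2 closest profiles per member. A further marker of monocytes and macrophages is not reported here. Genes that overlap a member are also named, and cell type markers were named after their values were seen. Other names are marked as chosen after their values were seen. Precision is limited by 4 mice per group, and intervals cover the spread between mice and counting error together.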

Additional observations from a re-analysis of the deposited data

How the results depend on the processing

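The log2 changes of the 6 tested members stayed above 0 in every alternative that gave a value. Of the members, 4 were called in the reported fit, and 2 with no filter, 2 with the stricter filter (which left Zbp1, Ifi204 and Tmem173 untested), 2 in limma-voom and 1 (Zbp1) against a 1.5-fold change. With single libraries left out, 1 to 5 members were called, with 1 (Ikbke) left without A20WT mouse 1, 2 or 3 and 2 left without A20KIKO mouse 1 or A20WT mouse 4. The count over all genes, 576, was 1170 in DESeq2, 374 with the stricter filter and 200 against a 1.5-fold change, where 87.5% of calls were higher against 69.6% in the reported fit. It ran from 348 (without A20KIKO mouse 1) to 619 with single libraries left out, and was 355 without A20WT mouse 3.

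Only 1 of 4 same-numbered pairs of libraries had deviations correlated over 0.1 (0.24, the others -0.01 to 0.06). For 2 of the 4 A20KIKO libraries the best correlated A20WT library had the same number. With 4 pairs, these values do not settle whether the replicate numbers pair the libraries. With the replicate block 551 genes and 4 members were called, but not the same 4. Samhd1 came in (edgeR adjusted p = 0.0201) and Ifi204 dropped out (0.0677). The Ikbke to Tbk1 difference of 0.58 gave p = 0.125 in the paired exact sign-flip test, the smallest 4 pairs allow, and ran from 0.52 to 0.70 with single libraries left out, where no p under 0.0571 is possible. The Zbp1 to Ifi204 difference of 1.96 became 1.97 and reached p = 0.0286 (exact permutation) with 5 added to each count. The causes were not tested. The ratio of Trex1 to Samhd1 could not be computed, as Trex1 had 0 counts. With lane L001 alone and with the stricter filter Ifi204 was not tested.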
